A study of Mus musculus with 6 samples.

Results

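The genes described here are the mouse histone genes whose symbols start with H1f, H2ac, H2bc, H3c or H4c followed by a number, which are the linker histone genes and the core histone genes of the replication-dependent clusters. The deposited table held 61 of them among 31265 genes: 10 for H1, 15 for H2A, 14 for H2B, 12 for H3 and 10 for H4. They were measured in E14Tg2a, a mouse embryonic stem cell line, carrying in its nucleus Grx1-roGFP2, a fluorescent sensor that reports the glutathione redox state. All cells had grown with serum, LIF and 2i and were then kept as embryoid bodies, cell aggregates that differentiate spontaneously, in serum without LIF and 2i until day 5. Live cells, which excluded propidium iodide, were sorted from 3 populations called A, B and C. The oxidized group (D5_ox) is the 10% of cells with the most oxidized sensor and the reduced group (D5_red) is the 10% with the most reduced sensor, with 3 libraries each. The cells came from 1 line, which the design text calls clonal, and what sets the 3 populations apart is not said, so a p-value here reflects the spread between them, which may be technical. Levels are in FPKM, which is fragments counted per kilobase of transcript and corrected for library depth. In such bulk samples, fewer cells that express a gene and less of its RNA per cell cannot be told apart.

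Core histones H2A, H2B, H3 and H4 form the protein spool around which DNA is wrapped, and H1 linker histones bind where DNA enters and leaves it. Most of their genes lie in clusters, are transcribed mainly in S phase, when new DNA must be packaged, and make mRNAs that end in a conserved stem-loop in place of a poly(A) tail. The stem-loop is bound by SLBP, the stem-loop binding protein, which guides 3′ end processing and translation. Cells that leave the cell cycle can also make polyadenylated forms of some of these mRNAs. Oligo-dT beads selected poly(A) RNA for these libraries, so the values count the RNA those beads retained; which share of it carried a poly(A) tail was not tested.

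Of the 61 genes, 57 lay in 3 blocks on the mm10 genome. The first block on chromosome 13 held 16 of them (chr13:21715763-22043676), the second held 31 (chr13:23531050-23934851) and chromosome 3 held 10 (chr3:96219865-96270132). The other 4 were linker histone genes on chromosomes 15 and 6, namely H1f0, H1f7, H1f8 and H1f10. H1f0 and H1f10 are expressed independently of replication, and H1f7 and H1f8 belong to testis and oocyte. A further 12 histone genes, outside this set of 61, were read mainly as a check on the class sums. Most carry older symbols, such as Hist1h2ao and Hist1h2ap, while H2aw, H2bu2 and H4f16 do not. H4f16, on chromosome 6, and the processed pseudogene Hist1h2al lie outside the clusters.

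The stem-loop, searched as a stem of 6 bases that opens with GG and closes with CC around a loop of 4 bases that opens with TT, was found within 200 bases after the stop codon in the annotated transcripts of 35 of the 61 genes. By class these were 4 H1, 8 H2A, 7 H2B, 8 H3 and 8 H4 genes. In 12 of the other genes the annotated transcript ends at the stop codon, so there was nothing to search. The 35 stem-loops had 6 forms, and 1 gene of each form is shown, read 5′ to 3′ on the gene's strand with the stem-loop in capitals, because this is the end that a poly(A) selection would not catch.
H2ac7: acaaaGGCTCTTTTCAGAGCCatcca
H2bc12: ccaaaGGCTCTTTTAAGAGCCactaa
H2ac20: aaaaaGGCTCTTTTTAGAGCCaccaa
H4c4: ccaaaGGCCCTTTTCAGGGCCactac
H4c9: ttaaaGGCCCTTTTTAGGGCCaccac
H4c11: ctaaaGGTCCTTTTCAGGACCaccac
The form of H2ac7 (stem-loop at chr13:23574895-23574910, plus strand) was shared by 20 genes, 3 of H1, 7 of H2A, 5 of H2B and 5 of H3. That of H2bc12 (chr13:22036300-22036315, plus strand) was shared by 6 genes, and that of H2ac20 (chr3:96220418-96220433, minus strand) was found in H2ac20 alone. The 3 forms of the H4 genes, shown by H4c4 (chr13:23581950-23581965, plus strand), H4c9 (chr13:22040966-22040981, minus strand) and H4c11 (chr13:21735437-21735452, plus strand), were found in no gene of another class and were shared by 4, 2 and 2 genes.

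Histone genes of a class are near copies of each other, which limits what can be said of any 1 copy. Over the 61 genes, the median share of a transcript's 31-base stretches that also occur in transcripts of other genes was 55.2%. It was 0.141% for H1, 70.0% for H2A, 57.4% for H2B, 63.1% for H3 and 41.6% for H4. The treatment of fragments that match several copies is unknown here, so the level of a copy with much shared sequence is uncertain, and the sum over a class is less so. The H2A gene on which the comparison turned, H2ac13, shows how small the differences are. Its coding sequence of 393 bases differed from those of H2ac7 and H2ac11 at 5 bases each and from those of Hist1h2ao and Hist1h2ap at 6, and 10 H2A genes were within 10 differences. Bases 13 to 62 of the coding sequence, counted from 1 at the A of the start codon, are shown for H2ac13 (gene at chr13:21716422-21716814, plus strand) and 5 near copies. Capitals mark base 51 in H2ac13 and, in the copies, each base that differs from H2ac13.
H2ac13: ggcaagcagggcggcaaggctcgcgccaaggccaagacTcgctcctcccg
H2ac7: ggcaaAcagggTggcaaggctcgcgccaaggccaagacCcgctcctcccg
H2ac11: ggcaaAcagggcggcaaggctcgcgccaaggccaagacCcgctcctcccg
H2ac10: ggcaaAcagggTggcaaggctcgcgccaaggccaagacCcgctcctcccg
Hist1h2ao: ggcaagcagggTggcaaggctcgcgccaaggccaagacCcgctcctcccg
Hist1h2an: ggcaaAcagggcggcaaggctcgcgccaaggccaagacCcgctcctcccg
The change T51C was the only position at which H2ac13 differed from all 10 near copies. G18A and C24T were each found in some of the copies only.

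**Figure D1:**
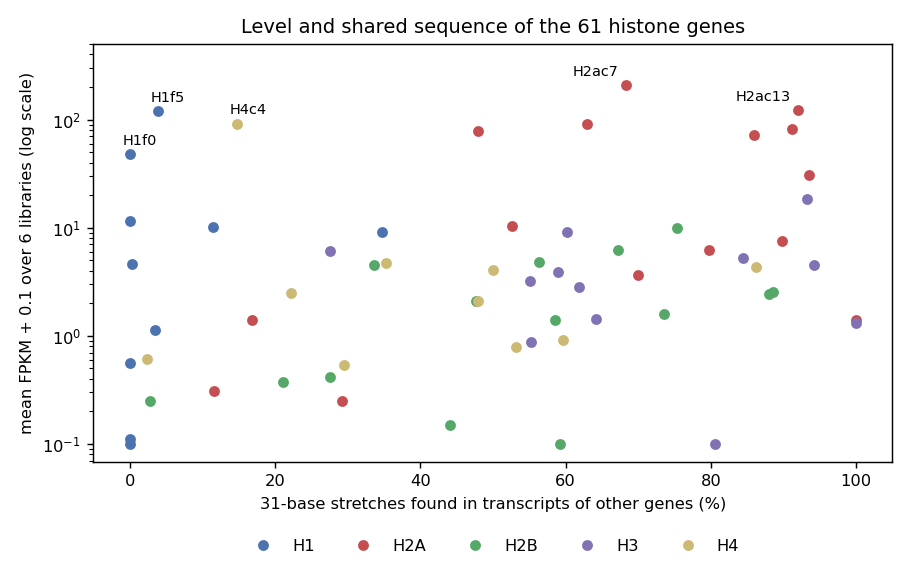
Mean FPKM plus 0.1 over the 6 libraries (log scale) against the share of 31-base stretches that occur in transcripts of other genes (percent), with 1 point for each of the 61 genes, coloured by class. Of the 3 labelled genes at the left, H1f0 shared 0%, H1f5 3.93% and H4c4 14.7% of their stretches, while H2ac13 at the right shared 92.0%.

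The libraries held an estimated 1.18e+07 to 1.79e+07 fragments, those of population C being the shallowest of each group. The oxidized libraries A and B stood apart from the other 4. An 18S ribosomal RNA locus, which has no poly(A) tail, was listed there at 1410 and 1736 FPKM, against 34116 to 43825 FPKM elsewhere. The mitochondrial gene mt-Co3 was at 2710 and 1525 FPKM in A and B, against 112 to 199 FPKM elsewhere. Results that rest on these libraries are therefore given also without oxidized A and B. That fit keeps oxidized library C alone against the 3 reduced libraries and assumes that it varies as they do. Any difference between population C and populations A and B enters that comparison. Of the marker lists, the 4 pluripotency genes (Pou5f1, Sox2, Nanog and Utf1) summed to 187 to 522 FPKM in oxidized libraries and 404 to 508 FPKM in reduced libraries, and the 3 genes of the primitive streak and mesoderm (T, Hand1 and Mesp1) to 135 to 199 FPKM in oxidized and 84.3 to 119 FPKM in reduced libraries. Hand1 made up most of the mesoderm sums, with 156 ± 30.6 FPKM in oxidized libraries against 80.8 ± 17.4 FPKM in reduced libraries (SD, n = 3 each). T averaged 4.51 ± 1.06 FPKM in oxidized libraries against 14.7 ± 0.23 FPKM in reduced libraries, and Mesp1 4.55 ± 0.91 FPKM in oxidized libraries against 7.17 ± 0.93 FPKM in reduced libraries (SD, n = 3 each). The groups did not overlap in any of the 3, with Hand1 higher and T and Mesp1 lower in oxidized cells. Of the other markers tested, they also did not overlap in Pou5f1, which was lower in oxidized cells (119 ± 40.7 against 183 ± 15.7 FPKM). The endoderm marker Ttr and the neuroectoderm marker Nes were higher without overlap. Nanog overlapped, with a log2 difference of 0.35, against -0.68 for Pou5f1. Over all tested genes 16.2% were higher and 8.81% lower without overlap. All 7 of these pluripotency and mesoderm markers had a mean over 1 FPKM. T alone was called (lower in oxidized cells, adjusted p = 0.0158 by limma). That call ended with the population as a block (0.0601), with no filter (0.149), without oxidized A (0.0619), oxidized B (0.0870), reduced A (0.113) or reduced B (0.130), and without oxidized A and B together (0.0531). The 3 endoderm markers (Sox17, Ttr and Afp) summed to 2.08 to 6.56 FPKM in oxidized and 1.02 to 1.98 FPKM in reduced libraries, and the 2 neuroectoderm markers (Pax6 and Nes) to 3.04 to 6.87 FPKM in oxidized and 2.09 to 2.42 FPKM in reduced libraries. The 4 markers of blood and fibroblasts (Hbb-bh1, Ptprc, Col1a1 and Thy1) summed to 53.8 to 290 FPKM in oxidized and 25.2 to 310 FPKM in reduced libraries. Hbb-bh1, an embryonic globin of blood cells, was at 62.9, 41.2 and 267 FPKM in oxidized libraries A, B and C, against 16.2, 31.3 and 299 FPKM in reduced libraries A, B and C, so it was highest in population C of both groups. Ptprc, a marker of white blood cells, was at 0 in all 6 libraries.

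The levels set H2A, H1 and H4 on average above H3 and H2B. Summed over a class, H2A genes gave 1222, 928 and 657 FPKM in oxidized libraries A, B and C, against 520, 311 and 659 FPKM in reduced libraries A, B and C. The oxidized libraries A and B were above all reduced libraries, while the oxidized library C was level with the reduced library C. H1 genes gave 157, 104 and 314 FPKM in oxidized libraries, against 184, 200 and 271 FPKM in reduced libraries. The H1 groups overlapped, and the highest and the lowest library were both oxidized.

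H4 genes summed to 105, 60.8 and 145 FPKM in oxidized libraries A, B and C, against 113, 87.4 and 157 FPKM in reduced libraries A, B and C. H3 genes summed to 36.6, 32.5 and 72.9 FPKM in oxidized libraries, against 63.0, 45.6 and 85.8 FPKM in reduced libraries. H2B genes summed to 36.4, 30.8 and 37.3 FPKM in oxidized libraries, against 34.0, 25.0 and 49.1 FPKM in reduced libraries. In H2B, H3 and H4 the order of the populations was C above A above B in both groups, and the groups overlapped. The H1 sum, like the globin Hbb-bh1, was also highest in population C of both groups; the part of other cell types in these levels was not tested. For H3 and H4, the oxidized library was below the reduced library of its population in all 3 populations.

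The log2 ratio of the group means was 0.91 for H2A (936 ± 282 FPKM in oxidized and 497 ± 175 FPKM in reduced libraries, SD, n = 3 each), -0.19 for H1, -0.05 for H2B, -0.45 for H3 and -0.20 for H4. These sums were not tested. Within populations A, B and C, the H2A log2 ratio was 1.23, 1.58 and -0.00, so the difference in the means came from A and B, the libraries that stood apart. Without those 2 oxidized libraries the log2 ratios were 0.40 for H2A, 0.52 for H1, 0.05 for H2B, 0.17 for H3 and 0.29 for H4. These set oxidized C against reduced A, B and C, though the sums of H1, H2B, H3 and H4 were highest in population C of both groups. Oxidized C over reduced C alone gave -0.00 for H2A, 0.21 for H1, -0.40 for H2B, -0.24 for H3 and -0.11 for H4. With all libraries, adding the H2A genes outside the set left the H2A log2 ratio at 0.84, and leaving out H2ac13 alone put it at 0.64. The H1 log2 ratio rested on H1f5: it was 0.33 without that gene, and -0.41 over the 6 H1 genes inside the clusters. Without H3c11 and H3c8 the H3 log2 ratio was -0.13, and without H4c4 the H4 log2 ratio was -0.05.

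**Figure D2:**
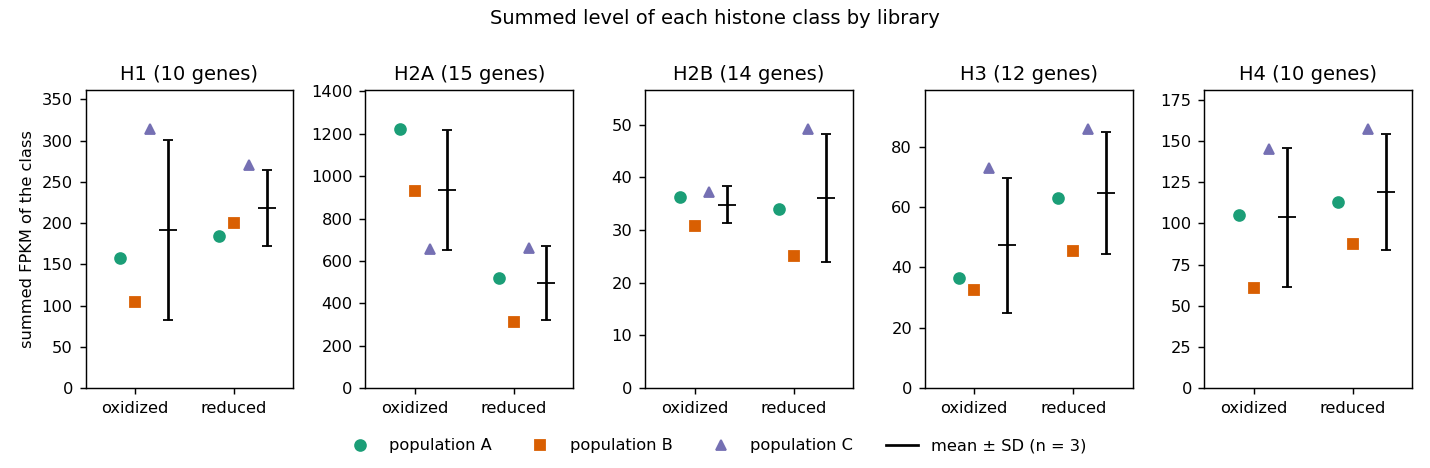
Summed FPKM of each class, with 1 point per library (populations A, B and C), oxidized left of reduced, and the mean ± SD of 3 libraries beside them. The H2A sums of oxidized libraries A and B, 1222 and 928 FPKM, lie above the reduced ones, and in every class the groups overlap.

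H2A genes accordingly took different shares of the FPKM of the 61 genes. That total leaves out the H2A genes outside the set. With them the H2A sum averaged 1785 FPKM in oxidized and 1000 FPKM in reduced libraries, and without them 936 and 497 FPKM. The shares thus depend on which copies are counted. The H2A genes of the set made up 78.5%, 80.3% and 53.6% in oxidized libraries A, B and C, against 56.9%, 46.5% and 53.9% in reduced libraries A, B and C. The H4 share was 6.76%, 5.26% and 11.8% in oxidized libraries, against 12.4%, 13.1% and 12.9% in reduced libraries. The H3 share was 2.35%, 2.81% and 5.94% in oxidized libraries, against 6.89%, 6.81% and 7.02% in reduced libraries. The H2B share was 2.34%, 2.66% and 3.04% in oxidized libraries, against 3.72%, 3.74% and 4.02% in reduced libraries. Of the total of the 61 genes, the shares of H2B, H3 and H4 were lower in every oxidized library than in every reduced one. The shares are parts of 1 total, so a high H2A share lowers the others. Within that total, the oxidized library C lay nearest to the reduced libraries in all 3 classes. With the histone genes outside the set counted as well, its H3 and H4 shares were above those of reduced library B. The absence of overlap in H3 and H4 thus holds for the total of the 61 genes only.

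For the comparison gene by gene, limma was fitted to log2(FPKM + 1) over the 12191 genes whose mean reached 1 FPKM, and p-values were adjusted by the Benjamini-Hochberg method over all of them. A gene is called where its adjusted p is under 0.05. Of the 61 genes, 45 passed the filter: 7 of H1, 13 of H2A, 9 of H2B, 10 of H3 and 6 of H4. The gene just outside was H4c2, with a mean of 0.816 FPKM, and the gene just inside was H1f3, with 1.03 FPKM. Among the 16 below it, 3 were at 0 in all libraries, namely H1f7, H2bc18 and H3c13, and the testis genes H1f6, H2ac1 and H2bc1 averaged at most 0.210 FPKM.

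H2ac13 was called higher in oxidized cells, and no histone gene was called lower: 1 and 0 of 45 tested. Over all tested genes 0.517% were called higher, 0.279% lower and 0.796% in either direction. With median-ratio scaling the split over all genes was 58 higher and 50 lower, against 63 and 34 without it, and the call of H2ac13 held (adjusted p = 0.0109 by limma). The log2 difference was positive in 20 and negative in 25 of the 45 genes, with a median of -0.08, while over all tested genes it was positive in 7232 and negative in 4959, with a median of 0.08. By class the median was 0.25 for H1, 0.29 for H2A, -0.08 for H2B, -0.33 for H3 and -0.33 for H4. At an unadjusted p under 0.05, 4 genes were higher (H2ac13, H2ac14, H1f4 and H3c10) and 3 were lower (H3c1, H3c8 and H3c14) in oxidized cells. Over all 12191 tested genes, 1648 were higher and 723 lower at that threshold, so these counts do not stand out. The adjusted p of the other 44 genes ran from 0.0780 to 0.950.

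**Figure D3:**
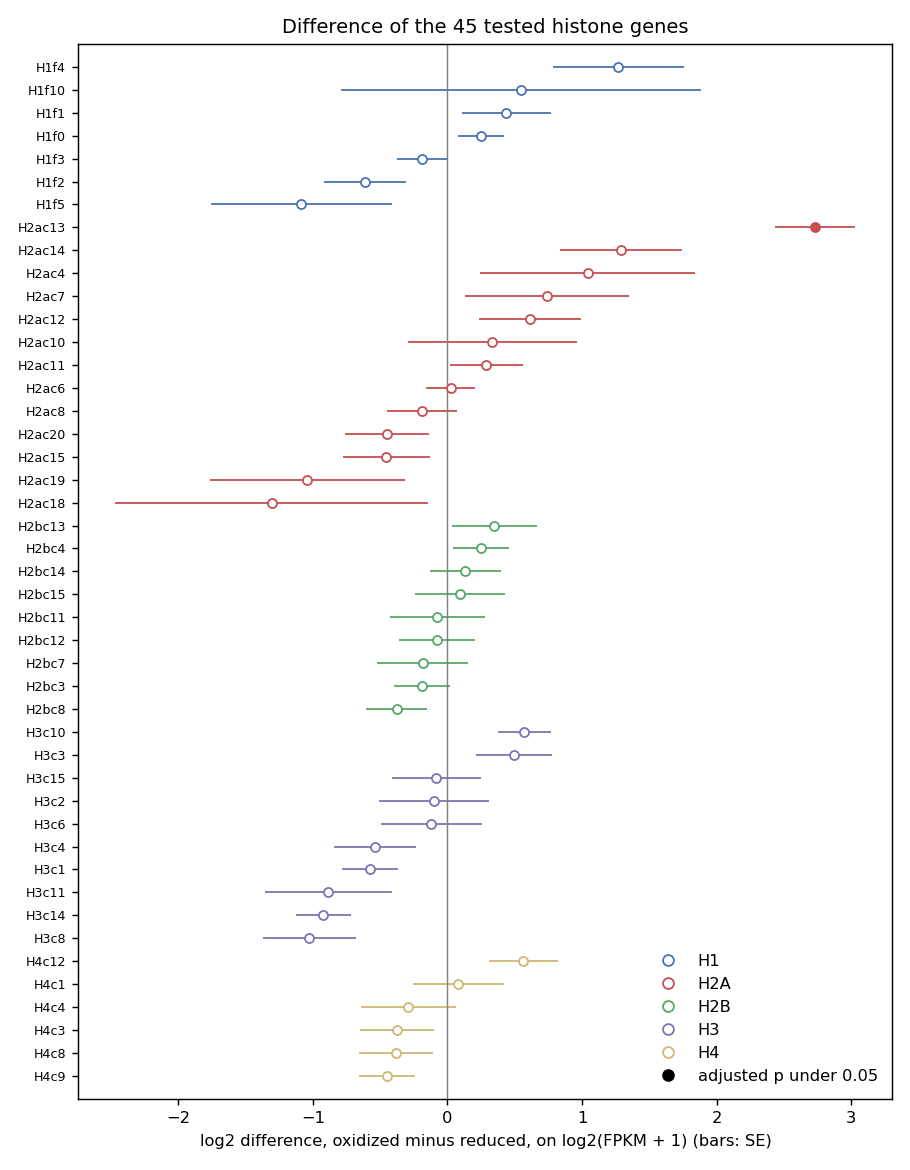
Log2 difference between oxidized and reduced cells on the log2(FPKM + 1) scale for the 45 tested genes, grouped by class, with bars for the standard error; filled points mark an adjusted p under 0.05. H2ac13 at 2.73 is the only filled point, and 8 of the 10 H3 genes lie below 0.

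In 3 of the 45 genes every oxidized library was above every reduced one (H2ac13, H3c10 and H4c12), where the share over all tested genes was 16.2%. In 2 genes every oxidized library was below every reduced one (H3c1 and H3c14), where that share was 8.81%. These counts do not exceed the background shares.

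Among the H2A genes, H2ac13 (ENSMUSG00000071516, called Hist1h2ai in the GENCODE annotation) encodes a canonical H2A of the chromosome 13 cluster. It held 244, 242 and 155 FPKM in oxidized libraries A, B and C, against 19.3, 42.4 and 34.9 FPKM in reduced libraries A, B and C. The lowest oxidized library, C, was above the highest reduced library, B. The means were 213 ± 50.9 FPKM in oxidized and 32.2 ± 11.8 FPKM in reduced libraries (SD, n = 3 each), a log2 difference of 2.73 with a standard error of 0.30 and an adjusted p of 0.0136 by limma. With the population as a block the adjusted p was 0.0540, and with no filter on low genes it was 0.185, so the call did not hold in either. It also ended without oxidized library A (0.0703), oxidized library B (0.0869) or reduced library B (0.0859). Without both oxidized libraries that stood apart, the log2 difference was 2.30 with an adjusted p of 0.106.

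Its annotated transcript is the coding sequence alone, and 92.0% of its 31-base stretches occur in other transcripts. H2ac13 and its 10 near copies, 3 of which carry older symbols, summed to 2159, 1680 and 1020 FPKM in oxidized libraries A, B and C, against 826, 708 and 1123 FPKM in reduced libraries A, B and C. In population C the sum was lower in the oxidized library, unlike H2ac13 alone. Whether the fragments given to H2ac13 came from it or from its copies was not tested.

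Hist1h2ao and Hist1h2ap, which are not among the 15 H2A genes of the set, averaged 307 and 283 FPKM over the 6 libraries. Among the 15, H2ac7 had the highest mean, 207 FPKM, and supplied 28.9% of their sum. It held 322, 398 and 82.5 FPKM in oxidized libraries A, B and C, against 204, 64.4 and 172 FPKM in reduced libraries A, B and C. The groups overlapped, since the oxidized library C was below 2 of the reduced ones, and the log2 difference was 0.74 with a standard error of 0.61 (adjusted p = 0.524 by limma), and -0.66 without oxidized A and B. H2ac4 held 199, 23.6 and 162 FPKM in oxidized libraries, against 28.0, 27.6 and 110 FPKM in reduced libraries. Its oxidized library B was the lowest of the 6, and the adjusted p was 0.492.

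H2ac14 is annotated as an unprocessed pseudogene with 93.5% shared stretches. It held 77.5, 44.2 and 16.4 FPKM in oxidized libraries A, B and C, against 13.95, 14.7 and 17.0 FPKM in reduced libraries A, B and C. Only the oxidized libraries A and B stood above the reduced ones, the adjusted p was 0.180 by limma, and without oxidized library C it was 0.00282. Without oxidized libraries A and B the log2 difference of H2ac14 was 0.11, against 1.29 with all libraries (adjusted p = 0.869). H2ac12 held 122, 124 and 54.5 FPKM in oxidized libraries, against 83.3, 37.4 and 72.3 FPKM in reduced libraries, with the same pattern and an adjusted p of 0.398, and a log2 difference of 0.61 with all libraries and -0.16 without oxidized A and B.

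H2ac10 held 133, 26.9 and 87.6 FPKM in oxidized libraries A, B and C, against 73.5, 23.3 and 90.3 FPKM in reduced libraries A, B and C, so library B was the lowest in both groups. H2ac8 held 91.8, 50.3 and 81.1 FPKM in oxidized libraries, against 64.4, 82.9 and 104 FPKM in reduced libraries, where the groups overlapped. The remaining tested H2A genes averaged 1.29 to 10.3 FPKM. H2ac19, on chromosome 3, was listed at 0 in all libraries except reduced C, at 7.75 FPKM, and passed the filter through that library. All of its stretches occur in other transcripts, and H2ac18, whose coding sequence differs from that of H2ac13 at the same 32 positions, was listed at 8.59, 0 and 1.19 FPKM in oxidized libraries, against 12.7, 0 and 22.2 FPKM in reduced libraries. A listed 0 for such a copy can be a failed assignment.

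**Figure D4:**
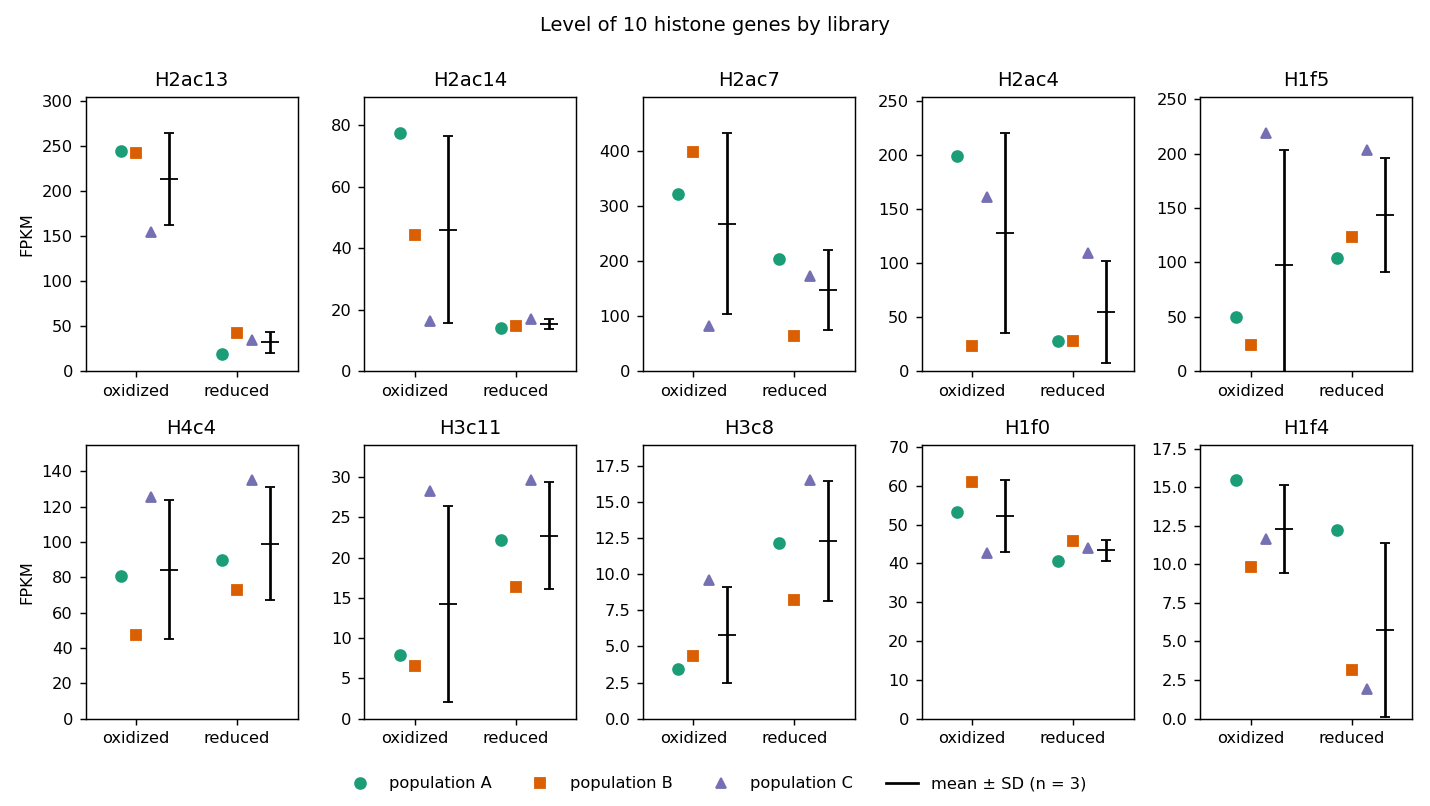
FPKM of 10 histone genes by library (populations A, B and C), oxidized left of reduced, with the mean ± SD of 3 libraries; each panel has its own scale from 0, and the lower error bar of oxidized H1f5 is cut there. The H2ac13 panel shows 155 to 244 FPKM in oxidized libraries, all above the 19.3 to 42.4 FPKM of reduced libraries, and in the H1f5, H3c11 and H4c4 panels oxidized library C lies above the reduced group's mean.

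Among the linker histones, H1f5 supplied 58.8% of the H1 sum and, with 3.93% shared stretches, is little exposed to reads of other copies. It held 50.05, 23.8 and 219 FPKM in oxidized libraries A, B and C, against 104, 123 and 203 FPKM in reduced libraries A, B and C. The oxidized libraries A and B were below all reduced libraries and the oxidized library C was above them all. The log2 difference was -1.09 with a standard error of 0.67 (adjusted p = 0.401 by limma). Without oxidized library C it was -1.96 with an adjusted p of 0.00972, and without oxidized libraries A and B it was 0.67. H1f2, a widely expressed clustered H1, was likewise lower in oxidized A and B than in all reduced libraries: 6.41, 4.80 and 12.8 FPKM in oxidized libraries, against 10.1, 11.2 and 14.6 FPKM in reduced libraries, with an adjusted p of 0.307, and 0.0214 without oxidized library C. Without oxidized A and B the log2 difference of H1f2 was 0.10, against -0.61 with all libraries.

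H1f4, another widely expressed clustered H1, held 15.4, 9.82 and 11.7 FPKM in oxidized libraries A, B and C, against 12.2, 3.17 and 1.90 FPKM in reduced libraries A, B and C. It was higher in the oxidized library of each population, but the groups overlapped through reduced library A, and the adjusted p was 0.206 by limma. H2bc6 overlaps this gene, and reads of overlapping genes are not told apart here. H1f0, the linker histone that accumulates in differentiated and resting cells and has a polyadenylated mRNA, held 53.2, 60.9 and 42.6 FPKM in oxidized libraries, against 40.5, 45.8 and 43.9 FPKM in reduced libraries. Its log2 difference was 0.25 with a standard error of 0.17 (adjusted p = 0.449), and no stretch of it was shared. H1f10, also replication-independent, was listed at 0 in oxidized library B and reduced library C and at 10.6 to 23.0 FPKM in the other 4, with adjusted p = 0.845.

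H2B was the class with the lowest sum, and none of the 9 tested came near the threshold (adjusted p 0.382 to 0.920 by limma). H2bc12, the most abundant, held 10.4, 10.5 and 7.01 FPKM in oxidized libraries A, B and C, against 8.60, 6.82 and 15.5 FPKM in reduced libraries A, B and C. H2bc11 held 6.78, 6.35 and 3.999 FPKM in oxidized libraries, against 6.65, 2.97 and 10.0 FPKM in reduced libraries. Both were low in oxidized library C and high in reduced library C, and the groups overlapped. H2bc8 held 3.75, 3.47 and 4.47 FPKM in oxidized libraries, against 5.80, 3.61 and 7.13 FPKM in reduced libraries, with a log2 difference of -0.38.

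H2A and H2B genes often stand head to head and share the stretch between them as a promoter. Among the genes studied there were 10 such pairs, with 175 to 305 bases between their starts, and the H2A gene had the higher mean FPKM in 8. H2bc13, the partner of H2ac13 across 278 bases, held 2.72, 1.36 and 4.79 FPKM in oxidized libraries A, B and C, against 1.29, 2.13 and 2.44 FPKM in reduced libraries A, B and C. The groups overlapped (log2 difference 0.35, standard error 0.32, adjusted p = 0.567 by limma), and the mean over all libraries was 2.45 FPKM beside 123 FPKM for H2ac13. In the pair of H2ac7 and H2bc7 the means were 207 and 1.502 FPKM. Since both annotated transcripts of the H2ac13 pair end at their stop codons, the levels rest on coding sequence that other copies share (92.0% and 88.6% of stretches).

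The promoter of H2ac13 is shown because it also spans the stretch that starts H2bc13. It is the window of 250 bases before to 50 after the RefSeq start (GRCm38.p6, chr13:21716162-21716461, plus strand), with the motif CCAAT, on either strand, in capitals.
H2ac13 promoter: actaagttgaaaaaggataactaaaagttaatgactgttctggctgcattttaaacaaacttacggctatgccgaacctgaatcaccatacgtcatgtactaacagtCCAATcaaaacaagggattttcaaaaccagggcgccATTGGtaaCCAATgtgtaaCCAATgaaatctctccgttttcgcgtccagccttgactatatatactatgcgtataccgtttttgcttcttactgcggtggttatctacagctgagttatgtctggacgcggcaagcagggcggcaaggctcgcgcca
CCAAT, the letters bound by the factor NF-Y, occurred 4 times in this window, and the letters TATAAA did not occur on either strand. Windows were found for 55 of the 61 genes, 56 windows in all. CCAAT occurred in 83.9% of them, against 37.4% of all 32851 promoters, and TATAAA in 53.6%, against 13.6% of all; neither motif contains the other. All 14 H2A, 13 H2B and 10 H3 windows held CCAAT, against 3 of 9 H4 windows and 7 of 10 H1 windows. TATAAA was in 10 H2A, 6 H2B, 4 H3, 6 H4 and 4 H1 windows. Windows of a head-to-head pair can overlap, as those of H2ac13 and H2bc13 (chr13:21716134-21716433, minus strand) did. A motif in the shared stretch was then counted for both genes, so the windows are not all separate promoters.

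Of the H3 genes, 8 of 10 had a negative log2 difference. H3c11 held 7.87, 6.53 and 28.3 FPKM in oxidized libraries A, B and C, against 22.2, 16.3 and 29.6 FPKM in reduced libraries A, B and C. The oxidized libraries A and B were below all reduced ones and C was not, with an adjusted p of 0.332 by limma, and 0.00673 without oxidized library C. The log2 difference of H3c11 was -0.88 with all libraries and 0.35 without oxidized A and B. H3c8 held 3.45, 4.32 and 9.61 FPKM in oxidized libraries, against 12.1, 8.25 and 16.5 FPKM in reduced libraries. It was lower in the oxidized library of each population, with a log2 difference of -1.03, a standard error of 0.35 and an adjusted p of 0.167, and 0.0123 without oxidized library C. Without oxidized A and B the log2 difference of H3c8 was -0.28 (adjusted p = 0.775). H3c4 held 2.56, 4.42 and 7.50 FPKM in oxidized libraries, against 7.16, 5.44 and 8.52 FPKM in reduced libraries, with an adjusted p of 0.360.

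H3c14, on chromosome 3, came nearest to the threshold after H2ac13, at low levels. It held 0.804, 0.452 and 0.347 FPKM in oxidized libraries A, B and C, against 1.81, 1.44 and 2.49 FPKM in reduced libraries A, B and C. The groups did not overlap, and the log2 difference was -0.92 with a standard error of 0.20 (adjusted p = 0.0780 by limma, and 0.0435 without oxidized library C). Without oxidized A and B it was -1.10 (adjusted p = 0.165). All of its stretches occur in other transcripts. H3c1 held 3.46, 1.94 and 3.28 FPKM in oxidized libraries, against 4.73, 3.98 and 5.47 FPKM in reduced libraries, also without overlap (adjusted p = 0.190). H3c10, the neighbour of H2ac13 in the first block, held 5.39, 4.89 and 6.11 FPKM in oxidized libraries, against 4.52, 3.10 and 2.61 FPKM in reduced libraries, where every oxidized library was above the reduced ones and the adjusted p was 0.173.

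H4 genes were dominated by H4c4, which supplied 82.3% of the class sum. It held 80.9, 47.1 and 125 FPKM in oxidized libraries A, B and C, against 89.9, 72.7 and 135 FPKM in reduced libraries A, B and C. Each oxidized library was below the reduced library of its population, with a log2 difference of -0.29, a standard error of 0.35 and an adjusted p of 0.677 by limma. H4c4 has an annotated transcript of 1138 bases, most of it after the stop codon, and 14.7% shared stretches. H4c9 held 3.57, 2.71 and 5.24 FPKM in oxidized libraries, against 5.88, 5.19 and 5.28 FPKM in reduced libraries, with an adjusted p of 0.283. H4c12 held 7.64, 4.03 and 4.07 FPKM in oxidized libraries, against 3.91, 3.25 and 2.26 FPKM in reduced libraries, with no overlap and an adjusted p of 0.269.

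Counted population by population, the number of the 45 genes with a positive log2 ratio was 25 in A, 19 in B and 12 in C. Over all tested genes it was 7092, 7352 and 6098 of 12191. The median H2A log2 ratio was 0.54 in A, 0.20 in B and -0.40 in C, so it changed sign between populations. The median H1 log2 ratio did so too, at 0.31, -0.41 and -0.00. The median H3 log2 ratio was -0.51, -0.23 and -0.30, and that of H4 was -0.11, -0.29 and -0.20, negative in each population. The H2B medians, 0.02, -0.04 and -0.02, lay close to 0.

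**Figure D5:**
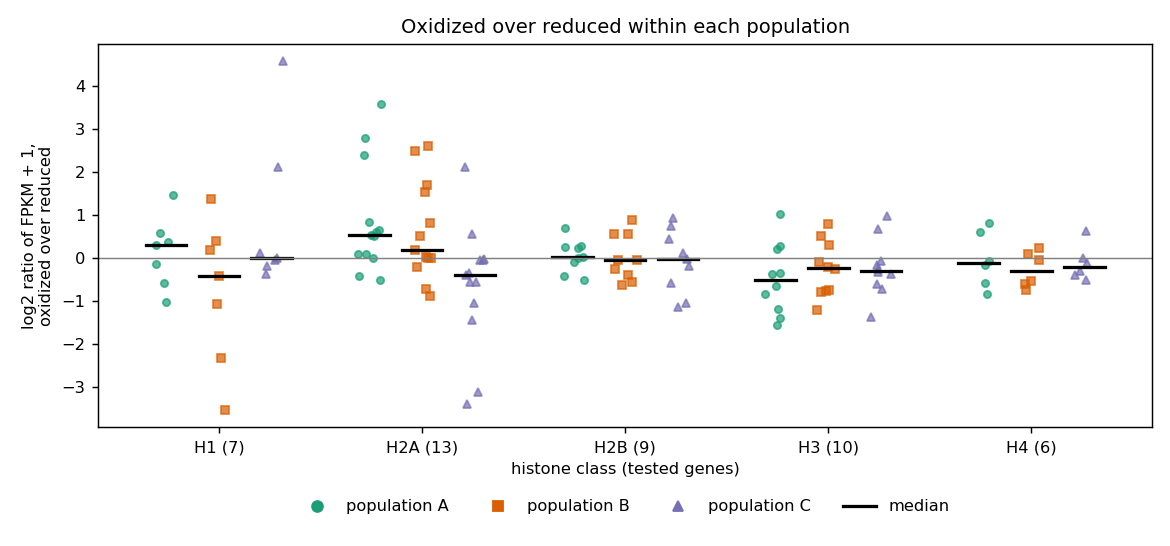
Log2 ratio of FPKM + 1, oxidized over reduced, within populations A, B and C for the tested genes of each class (number in brackets), with black lines at the medians. The H2A median is above 0 in A and B and below 0 in C, and the H3 and H4 medians are below 0 in all 3.

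Without oxidized library C, 2 of the 45 genes were called higher in oxidized cells (H2ac13 and H2ac14) and 5 lower (H1f2, H1f5, H3c8, H3c11 and H3c14), where 9.72% of all tested genes were called. These calls rest on the oxidized libraries A and B, which stood apart in ribosomal and mitochondrial RNA. The part of those RNAs in the result was not tested.

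The authors' deposited table marked 4 of the 61 genes, where it marked 1.94% of all 31265 genes. In the authors' deposited table H2ac13 had a fold of 6.63 (q = 5.46e-15), H2ac14 3.03 (q = 0.0251) and H3c14 0.279 (q = 0.00566). It also marked H2ac19 as down (q = 2.58e-06), the gene listed at 0 in every library except reduced C. The fold in the authors' deposited table is the ratio of group means with 1e-04 in place of a mean of 0, so no fold is given for H2ac19.

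The replacement histones are made outside S phase as well and have polyadenylated mRNAs. The table held 12 of the 14 listed genes, all tested. H1f0 and H1f10 are in this list and among the 61 genes as well. In oxidized cells 1 was called higher and 0 lower, where 0.517% of all tested genes were called higher and 0.279% lower. The median log2 difference was 0.29, against 0.08 over all tested genes. The called gene was Macroh2a2, a large H2A variant of repressed chromatin, at 63.3, 68.6 and 57.9 FPKM in oxidized libraries A, B and C, against 27.4, 32.0 and 32.0 FPKM in reduced libraries A, B and C. All oxidized libraries were above all reduced ones, with a log2 difference of 1.03, a standard error of 0.15 and an adjusted p of 0.0330 by limma. With the population as a block it was 0.0753, and leaving out any library other than oxidized C ended the call, with adjusted p from 0.0550 without reduced C to 0.184 without reduced A. Its values without oxidized A, oxidized B and reduced B were 0.118, 0.129 and 0.146, and without oxidized A and B together the log2 difference was 0.91 (adjusted p = 0.168).

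The 3 most abundant replacement histones were not called. H2az1, an H2A variant found near transcription starts, held 612, 431 and 525 FPKM in oxidized libraries, against 578, 594 and 742 FPKM in reduced libraries. H3f3b averaged 314 ± 20.8 FPKM in oxidized and 317 ± 31.8 FPKM in reduced libraries and H3f3a 250 ± 65.4 FPKM in oxidized and 220 ± 52.1 FPKM in reduced libraries (SD, n = 3 each); both encode the replacement H3. H2ax, the variant phosphorylated at DNA breaks, has both a stem-loop and a polyadenylated mRNA form. It held 203, 229 and 90.5 FPKM in oxidized libraries A, B and C, against 99.6, 79.7 and 99.1 FPKM in reduced libraries A, B and C (adjusted p = 0.228 by limma, and 0.00537 without oxidized library C). Like the H2A sum, it was high in oxidized A and B only, and its log2 difference was 0.80 with all libraries and -0.03 without those 2.

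Of 19 genes for the processing and transcription of histone mRNA, none was called in either direction, with a median log2 difference of 0.04. Over all 12191 tested genes 2371 reached an unadjusted p under 0.05, and of these 19 genes 1 did. That gene was Slbp, at 28.8, 26.9 and 29.4 FPKM in oxidized libraries, against 33.7, 47.4 and 37.3 FPKM in reduced libraries, with no overlap, a log2 difference of -0.45 and an adjusted p of 0.201 by limma. Cpsf3, the endonuclease of the cleavage complex, averaged 39.6 ± 2.86 FPKM in oxidized and 35.9 ± 2.43 FPKM in reduced libraries, and Ncbp1, of the cap-binding complex, 34.6 ± 12.97 FPKM in oxidized and 26.03 ± 3.98 FPKM in reduced libraries (SD, n = 3 each). Without oxidized library C, Ncbp1 was called higher (adjusted p = 0.0497 by limma) and Sympk, a scaffold of the cleavage complex, lower (0.0466). In that fit 9.72% of all tested genes were called. The log2 difference there was 0.68 for Ncbp1 and -0.73 for Sympk. Without oxidized A and B instead, it was -0.38 for Ncbp1 and 0.32 for Sympk.

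Of 20 histone chaperone and transport genes, none was called, with a median of 0.03. An unadjusted p under 0.05 was reached by 3 of them (Hat1, Asf1b and Daxx), beside 2371 of all 12191 tested genes. Hat1, which acetylates new H4, held 134, 112 and 96.0 FPKM in oxidized libraries, against 162, 210 and 140 FPKM in reduced libraries, with no overlap and an adjusted p of 0.184 by limma. Rbbp7, a histone-binding partner of Hat1, averaged 240 ± 37.0 FPKM in oxidized and 289 ± 22.3 FPKM in reduced libraries, and Ssrp1, of the FACT chaperone, 105 ± 16.3 FPKM in oxidized and 97.2 ± 15.6 FPKM in reduced libraries (SD, n = 3 each).

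Of 35 genes of S phase and DNA replication, none was called, with a median of 0.11. Beside 2371 of all 12191 tested genes, 6 of the 35 reached an unadjusted p under 0.05. Of these, Cdt1, Mcm3 and Uhrf1 were higher in oxidized cells. Ccne1, Pole and Slbp were lower, each with no overlap between the groups. The smallest p was that of Cdt1, which licenses replication origins. It held 44.9, 53.4 and 16.2 FPKM in oxidized libraries A, B and C, against 14.1, 11.2 and 12.8 FPKM in reduced libraries A, B and C. Every oxidized library was above every reduced one, A and B by most, with a log2 difference of 1.36 and an adjusted p of 0.126 by limma, and 0.34 with an adjusted p of 0.575 without oxidized A and B. Mcm5, a subunit of the replicative helicase, held 183, 209 and 147 FPKM in oxidized libraries, against 162, 138 and 139 FPKM in reduced libraries (adjusted p = 0.420 by limma). Rrm2, which makes deoxynucleotides, averaged 146 ± 22.3 FPKM in oxidized and 135 ± 23.6 FPKM in reduced libraries, and Mcm6, of the same helicase, 125 ± 11.5 FPKM in oxidized and 138 ± 22.0 FPKM in reduced libraries (SD, n = 3 each). Slbp stands in this list too. Without oxidized library C, Cdt1, Mcm3 and Ccna2 were called higher (adjusted p = 0.00092, 0.0169 and 0.0434 by limma), and of the chaperone list Daxx (0.0457). In that fit 9.72% of all 12191 tested genes were called, 884 higher and 301 lower. The log2 difference there was 0.91 for Mcm3, 0.65 for Ccna2 and 0.63 for Daxx. Without oxidized A and B instead, it was 0.08 for Mcm3, -0.18 for Ccna2 and 0.23 for Daxx.

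Other RNAs that lack a poly(A) tail or end in another structure were held in 14 rows, of which 7 were tested and none was called (median -0.01). The 18S ribosomal locus was the most abundant, and its 2 rows were low in oxidized A and B. Malat1, a long nuclear RNA, held 204, 175 and 225 FPKM in oxidized libraries, against 217, 312 and 284 FPKM in reduced libraries (adjusted p = 0.278 by limma). Rn7sk, a small nuclear RNA that restrains transcription elongation, held 14.5, 10.8 and 5.50 FPKM in oxidized libraries A, B and C, against 3.20, 1.68 and 3.82 FPKM in reduced libraries A, B and C, with no overlap and an adjusted p of 0.0864. Its log2 difference was 1.48 with all libraries and 0.78 without oxidized A and B. These RNAs differed in direction in the oxidized libraries A and B, and whether the histone values in those libraries moved with poly(A) selection was not tested.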

How the data were processed

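The authors deposited 1 table of FPKM values per gene and library, with their fold (a ratio of group means), its log2, p-value and q-value columns, per the file headers. The authors' log2 column is the log2 of the deposited fold. The tools in the submitters' processing notes are HISAT2, StringTie, cutadapt, FastQC and edgeR, with the build mm10. Their versions, the use of strand and the treatment of fragments that match several places are not given in the sources used here. No count test was run, since FPKM is not a count. Steps between low FPKM values gave the estimated depth, but 35.5% to 39.2% of values lay on a step within 0.05, so reads could not be recovered. Depth limits low genes most.

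limma 3.58.1 in R 4.3.3 was fitted to log2(FPKM + 1) over genes whose mean reached 1 FPKM (lmFit, eBayes with trend, group alone, two-sided, Benjamini-Hochberg adjustment over 12191 genes), and was tested on simulated data. No pair of libraries held identical values. The population letter pairs the libraries, per the series' design text. Deviations from the group means correlated within a letter at r = -0.06 (A), 0.07 (B) and 0.20 (C), beside at most 0.13, 0.12 and -0.05 with another letter. Only in C was the value within the letter the higher one. The block was an alternative, beside 2 scalings, 2 filters, a pseudocount of 0.1, no trend and leaving out libraries. Adding the histone genes outside the set and weighting by length were chosen after seeing the data.

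Genes were matched by identifier to GENCODE vM21 (mm10), which gave positions, stem-loops, coding sequence and shared 31-base stretches; promoters come from RefSeq (GRCm38.p6). The text names called genes, the 3 most abundant of each class and list and the genes on each side of the filter; others were chosen after their values were seen. The genes and lists were chosen with earlier results of these data known.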

Additional observations from a re-analysis of the deposited data

How the results depend on the processing

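With the replicate block, which pairs oxidized and reduced libraries by population, genes called over all genes were 2 higher and 2 lower, histone genes called higher 0 and replacement histones called higher 0. With no filter the same 4 counts were 2, 2, 0 and 0, and with a mean of at least 5 FPKM 21 genes were called lower. Leaving out each library in turn gave 1 to 884 genes higher and 2 to 301 lower, 0 to 2 histone genes higher and 0 to 5 lower, and 0 to 3 replacement histones higher. In the same way 0 to 1 processing genes were called higher and 0 to 1 lower, 0 to 1 chaperones higher, 0 to 3 S phase genes higher, and 0 to 1 RNAs without poly(A) tails higher and 0 to 2 lower. Each of these highest counts came without oxidized library C. Without oxidized libraries A and B, the log2 ratios of the class sums were 0.52 for H1, 0.40 for H2A and 0.17 for H3. Oxidized C over reduced C alone gave 0.21 for H1, -0.00 for H2A and -0.24 for H3.

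Of 302 alternative values for 21 named histone genes and Macroh2a2, 15 changed sign, 14 lost a call and 6 gained one. Without oxidized libraries A and B the log2 difference was -0.026 for H1f0, 0.10 for H1f2, 0.67 for H1f5, -0.66 for H2ac7, 0.35 for H3c11, 0.10 for H3c4 and 0.38 for H4c4. Leaving out each library in turn gave -0.70 to 2.06 for H1f10, -0.48 to 0.26 for H2bc11, -0.31 to 0.23 for H2bc12 and -0.63 to 0.069 for H4c4. Apart from what these fits leave out, the cause of the changes was not tested.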
